A study of Mus musculus with 8 samples.

Results

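The genes described here are the Wnt ligands, their Frizzled and Lrp receptors, the R-spondins, the secreted inhibitors, and the Axin, beta-catenin and Tcf/Lef proteins that carry the signal inside the cell. Probes were chosen by gene symbol alone. The symbol came from matching a probe's accession to RefSeq, so the 13374 probes left without a symbol could not be members. A probe was a member if its symbol was Wnt, Fzd, Sfrp, Dkk or Rspo followed by a digit, or if it was Lrp5, Lrp6, Axin1, Axin2, Wif1, Frzb, Ctnnb1, Lef1, Tcf7, Tcf7l1 or Tcf7l2. This gave 63 of the 39429 probes on the array, and 52 of its 19751 named genes. RNA came from the hippocampus, dissected by hand, of untreated wild type C57BL/6J mice kept in their home cage. By the study's methods, its oldest mice were bought already aged and then kept for some months in the authors' animal rooms. Mice of 3 months (3M) were compared with mice of 29 months (29M), with 4 samples per group and 1 single-colour (Cy3) array per sample. The sources used here do not say whether a sample came from 1 animal or several, so the p-values measure the spread between these samples. The comparison asks how RNA levels in the hippocampus differ between young adult and aged mice.

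Wnt proteins are secreted lipid-modified ligands. In the canonical branch a Wnt protein binds a Frizzled receptor together with Lrp5 or Lrp6, which pulls Axin to the membrane and stops the destruction of beta-catenin. Beta-catenin then enters the nucleus and switches on targets with Tcf/Lef factors, and Axin2 is a widely used target that also dampens the signal. Frizzled receptors further feed beta-catenin-independent branches that act on cell polarity and calcium. In the adult hippocampus the pathway is known for its part in the birth of new granule neurons in the dentate gyrus and in the upkeep of synapses.

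Of the 43020 spots that were not controls, 76.2% to 85.0% per array were well above background, and none was saturated. Values of 2 arrays correlated with r from 0.992 to 0.998 over all probes. Sample 3M-1 had the lowest share of spots above background and was the single array that the scanner software marked for evaluation. The arrays lay on 3 slides, and each slide held both ages. Slide 1 held 3M-1, 29M-3 and 29M-4, slide 2 held 3M-2 and 29M-2, and slide 3 held 3M-3, 3M-4 and 29M-1. All 11 markers of neurons and all 8 of dentate granule cells were above background on every array.

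Tcf/Lef factors bind the letters CTTTGAT or CTTTGAA, so the promoters of the members were searched for both, on either strand, in the RefSeq sequence of GRCm38.p6 from 250 bases before to 50 bases after each start. A promoter sequence was at hand for 35 member genes. Of these 3 held a match (8.57%), against 9.88% of the 27025 genes with such a sequence, so members held it about as often as other genes. The matches lay in the promoters of Dkk1, a secreted inhibitor that binds Lrp5 and Lrp6, and of the ligands Wnt11 and Wnt5b. They are shown because they tell which of these 35 genes held, within the bases searched, the letters that the end point of the pathway reads. The other members had no sequence at hand, and sites further from a start were not searched. Each sequence is given along the strand of its gene with the match in capitals, at chr19:30549577-30549643 on the minus strand for Dkk1, at chr7:98835031-98835097 on the plus strand for Wnt11, where the match reads on the opposite strand, and at chr6:119449421-119449487 on the minus strand for Wnt5b.
Dkk1: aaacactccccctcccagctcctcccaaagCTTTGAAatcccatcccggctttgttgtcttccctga
Wnt11: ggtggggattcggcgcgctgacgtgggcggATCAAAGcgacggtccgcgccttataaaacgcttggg
Wnt5b: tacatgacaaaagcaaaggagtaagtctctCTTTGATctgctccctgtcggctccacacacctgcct
Counted from the start to which the promoter belongs, the first base of the match lay at -117 in Dkk1, at -51 in Wnt11 and at -71 in Wnt5b. Wnt11 and Wnt5b had several starts with a promoter sequence, and the promoters of their other starts held no match. The level of Dkk1 was not above background on any array. Wnt11 was higher in 29M by 0.22 (95% interval -0.01 to 0.45, adjusted p = 0.320) and Wnt5b by 0.19 (-0.08 to 0.45, adjusted p = 0.462), and neither passed the test. A match is a stretch of letters and does not show that a factor binds there.

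No member of these families was called different between 3-month-old and 29-month-old mice. Whole tissue was measured, in which fewer cells of a type cannot be told apart from less RNA per cell. Levels are normalized log2 intensities, and a change is the mean of 29M minus the mean of 3M on that scale. The call needed an adjusted p below 0.1 in limma (Benjamini-Hochberg over the 39408 probes tested) together with a log2 change of at least 0.5 either way, which is 1.414-fold. By this rule 0 of the 63 member probes were called higher and 0 lower, while 1.96% of all probes were called, 1.21% higher and 0.754% lower. Of the 51 member probes that were well above background on all arrays of a group 0 were called, against 2.45% of all such probes. By gene, 0 of 52 were called, against 2.66% of all named genes, 1.81% with a probe called higher and 0.861% with one called lower. At an unadjusted p under 0.05, 8 of the 63 probes passed (12.7%; 3 higher and 5 lower), against 17.0% of all probes, and among those above background 7 of 51 passed, against 19.5%. The lowest adjusted p of a member was 0.114, for Wnt9a.

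From here on each gene is represented by the brightest of its probes on average. Changes of these 52 probes ran from -0.51 (Wnt9a) to 0.56 (Wnt6) and had a median of 0.07, where the median over all named genes was 0.01. The number of members above 0 was 34 and the number below 0 was 18, and with signals scaled to the 75th percentile of each array the number above 0 was 28. On all 8 arrays 45 of the 52 probes were well above background. In 26 of these 45 the whole 95% interval of the change lay within 0.5 either way, and in the other 19 it reached past -0.5 (8 genes) or past 0.5 (11 genes). Of all probes above background 69.9% had such a narrow interval. The intervals are per probe and not adjusted for the number of probes.

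**Figure D1:**
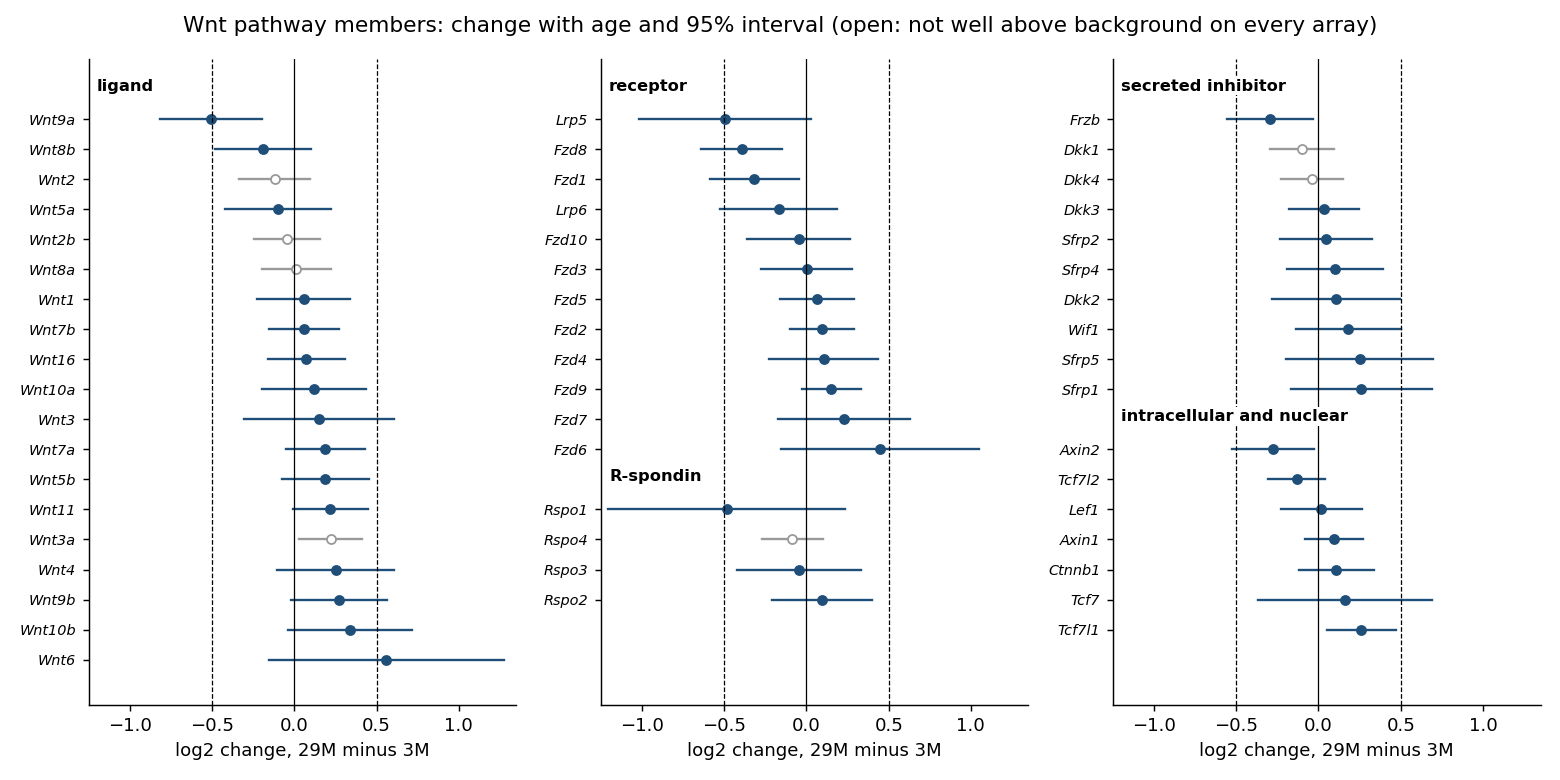
Log2 change from 3M to 29M (x axis, no unit) of the 52 member genes, grouped by role, with points for the change and lines for its 95% interval from limma (n = 4 per group). Filled points were well above background on all 8 arrays, open points were not, and the dashed lines at -0.5 and 0.5 mark the threshold. Most points lie between these lines, and the lowest is Wnt9a at -0.51 while the highest is Wnt6 at 0.56.

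**Figure D2:**
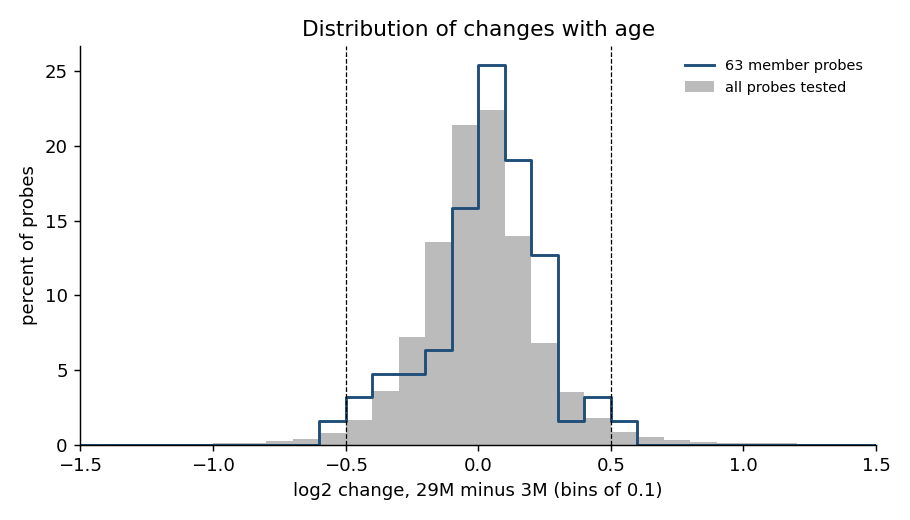
Share of probes (y axis, percent) in steps of 0.1 of log2 change from 3M to 29M (x axis) for all 39408 probes tested (grey bars) and for the 63 member probes (line). Both are centred near 0, and 0 of the 63 member probes passed the test.

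Among the 19 ligands the median change was 0.12, and 14 were above 0 and 5 below. Wnt9a had the lowest adjusted p of all members. Its log2 levels in 3M were 11.86, 11.32, 11.65 and 11.46, and those in 29M were 10.87, 11.00, 11.05 and 11.35. Every 29M sample but 29M-4 was below all 3M samples, and 29M-4 was just above 3M-2, so the groups overlapped slightly. The change was -0.51 (SE 0.14, 95% interval -0.82 to -0.19, adjusted p = 0.114), which met the fold threshold and missed the one on p. Within slides 1, 2 and 3 the change was -0.66, -0.32 and -0.69. With slide as a block in limma the change was -0.58 with an adjusted p of 0.0755, so Wnt9a was called lower in that fit, in which 1.58% of all probes were called and 0.632% were called lower. It was also called when only probes above background were tested (adjusted p = 0.0950) and when slide was a random block (adjusted p = 0.0972). It was not called in any other alternative, and with slide as a block and without 3M-1 the adjusted p was 0.206, with a change of -0.53.

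The highest change among the ligands was that of Wnt6, which also had a wide spread. Its levels were 8.76, 8.80, 8.90 and 7.86 in 3M and 9.24, 9.34, 9.71 and 8.27 in 29M. Both groups held 1 low sample, 3M-4 and 29M-4, and the groups overlapped. The change was 0.56 with an interval from -0.16 to 1.27 (adjusted p = 0.415), and it ran from 0.32 without 3M-4 to 0.85 without 29M-4. Wnt10a, which lies next to Wnt6, differed by 0.12 (-0.20 to 0.44). Other pairs of neighbouring Wnt genes gave 0.27 for Wnt9b beside 0.15 for Wnt3, and 0.34 for Wnt10b beside 0.06 for Wnt1, and none of these 4 genes passed the test (adjusted p from 0.330 to 0.864). The partner of Wnt9a is Wnt3a, a ligand best known for maintaining the growth of the hippocampal field in the embryo. Wnt3a was not above background on any array, and all its 29M values (5.47 to 5.67) were above its 3M values (5.18 to 5.44), a change of 0.22 with an adjusted p of 0.227; among all probes 5.52% had every 29M value above every 3M value. The sign of this change depended on the scaling, since it was -0.011 with the normalization applied to the processed signal and -0.11 with that signal scaled to the 75th percentile of each array.

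The ligands that are best known in the adult brain showed small differences. Wnt7a, which acts on the growth of synapses, was higher in 29M by 0.19 (-0.05 to 0.43, adjusted p = 0.417). Wnt7b was at 9.48 ± 0.10 (SD, n = 4) in 3M and 9.54 ± 0.15 in 29M (adjusted p = 0.794). Wnt5a, mainly a ligand of the beta-catenin-independent branches, was at 11.51 ± 0.23 and 11.41 ± 0.23, a difference of -0.10 (-0.42 to 0.22, adjusted p = 0.774). Wnt4 was higher in 29M by 0.25 (-0.10 to 0.61) without passing the test (adjusted p = 0.462). None of these 4 passed the test. Wnt16 and Wnt8b had intervals within 0.5 either way, around 0.07 and -0.19. Of the remaining ligands, Wnt2b and Wnt8a were not above background on any array and Wnt2 on 3 arrays of 3M and 2 of 29M, with changes of -0.04, 0.01 and -0.12.

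Of the 12 receptors 7 were above 0 and 5 below, with a median of 0.03. Fzd8, a Frizzled receptor, was the one member above background whose groups did not overlap; over all probes 11.1% had groups that did not overlap, 5.55% with 29M lower. Its levels were 8.42, 8.81, 8.50 and 8.71 in 3M and 8.31, 8.26, 8.28 and 8.02 in 29M. Its change was -0.39 (SE 0.11, 95% interval -0.64 to -0.15, adjusted p = 0.118), and within slides 1, 2 and 3 it was -0.27, -0.56 and -0.29. With slide as a block it was -0.36 with an adjusted p of 0.171. The adjusted p of Fzd8 was under 0.1 after normexp and quantile normalization (0.077), with only probes above background (0.0990) and without 3M-1 (0.057). In these fits the change (-0.38, -0.39 and -0.46) missed the fold threshold, so Fzd8 was not called.

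Fzd1, a Frizzled receptor of the canonical branch, had levels of 11.74, 11.88, 11.78 and 11.66 in 3M and 11.34, 11.36, 11.80 and 11.29 in 29M. Sample 29M-3 lay among the 3M samples and the other 29M samples lay below them. The change was -0.32 (SE 0.12, 95% interval -0.59 to -0.05, adjusted p = 0.221), and the slides gave -0.19, -0.52 and -0.38. With each array left out in turn and no block, it ran from -0.27 without 29M-4 to -0.44 without 29M-3 (adjusted p = 0.403 and 0.0546), short of the fold threshold.

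Fzd6, a receptor linked to cell polarity, moved in the other direction, and how its change compared with its spread turned on the slide. It was named after its values were seen. Its levels were 9.13, 10.12, 10.11 and 10.17 in 3M and 10.68, 10.70, 9.97 and 9.97 in 29M, so that 3M-1 stood below the rest and 29M-3 and 29M-4, from the same slide as 3M-1, lay at 9.97. The change over all samples was 0.45 (SE 0.27, adjusted p = 0.438). Within each slide it was higher in 29M, by 0.84, 0.58 and 0.54. With slide as a block it was 0.66 (SE 0.09, adjusted p = 0.0294), and Fzd6 was called higher, in a fit that called 0.947% of all probes higher. Without 3M-1 the change was 0.20 (adjusted p = 0.622) without the block and 0.56 (adjusted p = 0.0871) with it; this last fit was chosen after the data were seen.

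The co-receptors Lrp5 and Lrp6 were both lower in mean. Lrp5 was at 13.75, 13.40, 12.97 and 14.19 in 3M and at 13.34, 13.11, 13.10 and 12.80 in 29M, and the groups overlapped. The change of -0.49 had an interval from -1.02 to 0.03 (adjusted p = 0.323), a range that holds 0 as well as changes beyond the threshold. With each array left out in turn and no block, it ran from -0.29 without 3M-4 to -0.69 without 3M-3 (adjusted p = 0.508 and 0.157). Lrp6 had changes of -0.17 and -0.29 in its 2 probes (adjusted p = 0.636 and 0.489). Fzd3, a receptor for axon guidance, differed by 0.00 (-0.27 to 0.28). Fzd9, a receptor known from the dentate gyrus, was higher by 0.15 (-0.03 to 0.33, adjusted p = 0.379). Fzd2, Fzd4, Fzd5 and Fzd10 had intervals within 0.5 either way, with changes of 0.10, 0.10, 0.06 and -0.05. Fzd7 had a change of 0.23 with a wider interval (-0.17 to 0.63).

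R-spondins, which strengthen Wnt signals by keeping Frizzled receptors on the cell surface, gave 4 genes with changes from -0.49 to 0.09. Rspo1 was at 11.33, 9.82, 10.56 and 9.93 in 3M and 9.61, 9.74, 10.48 and 9.87 in 29M. Its SD of 0.69 in 3M was the highest of the 45 members above background, and 3M-1 stood highest. The change of -0.49 had an interval from -1.21 to 0.24 (adjusted p = 0.488). It was -0.18 without 3M-1 (adjusted p = 0.712) and -0.68 without 3M-2 (adjusted p = 0.402). Rspo2 and Rspo3 differed by 0.09 and -0.04, with intervals inside 0.5 either way. Rspo4 was above background on 1 array.

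The 10 secreted inhibitors had changes between -0.30 and 0.26. Frzb, also called Sfrp3, binds Wnt proteins outside the cell and is known to hold back the birth of neurons in the dentate gyrus. It was at 11.80, 12.20, 12.33 and 11.98 in 3M and 11.85, 11.75, 11.67 and 11.84 in 29M. Sample 3M-1 lay within the range of 29M, and the other 3M samples lay above it. The change was -0.30 (SE 0.12, 95% interval -0.56 to -0.03, adjusted p = 0.239) and on slide 1, which holds 3M-1, it was -0.04, against -0.44 and -0.30 on slides 2 and 3. With each array left out in turn and no block, it ran from -0.21 without 3M-3 to -0.39 without 3M-1 (adjusted p = 0.406 and 0.0760), short of the fold threshold. Sfrp1 and Sfrp5, which likewise bind Wnt proteins, were higher by 0.26 (adjusted p = 0.526) and 0.25 (adjusted p = 0.566), and Wif1 by 0.18 (adjusted p = 0.563). Dkk3, a relative of the Dkk inhibitors whose action on Wnt differs from theirs, was at 16.26 ± 0.14 (SD, n = 4) in 3M and 16.30 ± 0.10 in 29M, a difference of 0.03 (-0.18 to 0.24). Sfrp2, Sfrp4 and Dkk2 differed by 0.05, 0.10 and 0.11, and their intervals too lay within 0.5 either way. Dkk1 was above background on no array, with a change of -0.10, and Dkk4 on 2 arrays of each group, with a change of -0.04.

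Inside the cell the 7 genes had changes from -0.28 to 0.26. Ctnnb1, which encodes beta-catenin, was at 15.50 ± 0.13 (SD, n = 4) in 3M and 15.61 ± 0.15 in 29M, a difference of 0.11 (-0.12 to 0.34, adjusted p = 0.627). Axin1, the scaffold of the complex that destroys beta-catenin, differed by 0.09 (-0.08 to 0.27) and Lef1 by 0.02 (-0.23 to 0.26). For these 3 genes the whole interval lay within 0.5 either way. Tcf7, another Tcf factor, had a change of 0.16 with a wide interval (-0.37 to 0.69).

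Axin2, a target and brake of the canonical branch, was at 10.94, 10.85, 10.97 and 10.66 in 3M and 10.34, 10.55, 10.75 and 10.69 in 29M. The lowest 3M sample, 3M-4, lay below the 2 highest 29M samples. Its change was -0.28 (SE 0.11, 95% interval -0.53 to -0.03, adjusted p = 0.244), and the slides gave -0.23, -0.30 and -0.48. The second Axin2 probe, which was above background on 3 arrays per group, gave -0.05 (adjusted p = 0.877). Tcf7l1, a Tcf factor that mostly represses its targets, moved the other way, with 9.47, 9.60, 9.52 and 9.77 in 3M and 9.90, 9.73, 9.98 and 9.80 in 29M. Here 3M-4 lay above 29M-2, and the change was 0.26 (SE 0.09, 95% interval 0.05 to 0.47, adjusted p = 0.199), with 0.42, 0.12 and 0.26 on the 3 slides.

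**Figure D3:**
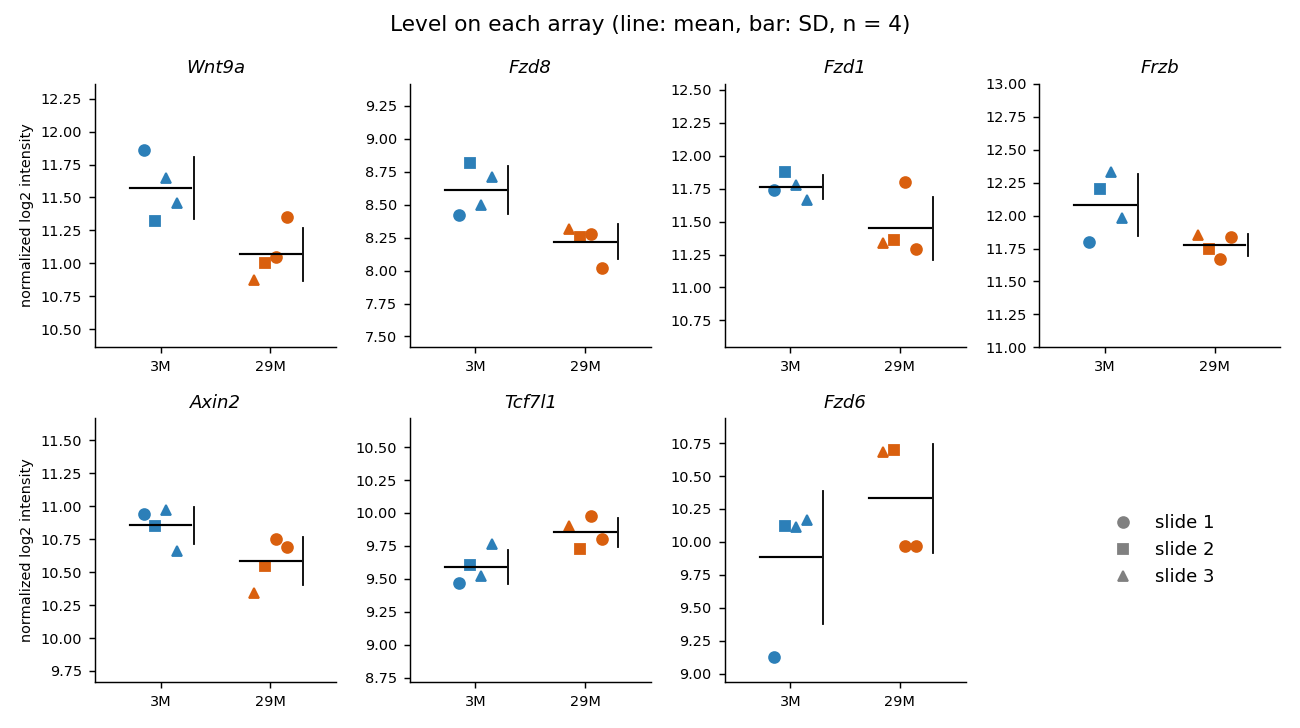
Normalized log2 intensity (y axis, 2 units high in every panel) of 7 member genes on each array in 3M (blue) and 29M (orange), with the mean as a line, the SD as a bar (n = 4) and symbols for the slide. Fzd8 has groups that do not overlap, and in Fzd6 the low 3M circle and the low 29M circles come from slide 1.

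Probes of a gene did not always go the same way. Of the 10 genes with more than 1 probe 7 had 1 sign and 3 had both. Tcf7l2, a Tcf factor of the thalamus and of oligodendrocyte development, gave -0.13, 0.01 and 0.40 in its 3 probes, and the last had an adjusted p of 0.241. Wnt1 gave 0.06 and -0.39 (adjusted p = 0.864 and 0.414), and Fzd2 gave 0.10 and -0.01. For 24 of the 45 members above background (53.3%) the change had 1 sign on all 3 slides, as it had in 46.9% of all probes above background on every array.

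The rest of the pathway was read from 5 lists with 102 genes, of which 100 were on the array. Of these 1 was called higher and 1 lower, where 2.66% of all named genes were called, and 19 of the 100 had an unadjusted p under 0.05, a share near the 17.4% of all named genes at that p. Their median change was 0.02, with 55 genes above 0 and 45 below. Apcdd1, a membrane inhibitor that binds Wnt and Lrp5, fell by 0.59 (SE 0.13, adjusted p = 0.0680), from 10.01 to 10.34 in 3M to 9.19 to 9.76 in 29M, and by 0.53, 0.60 and 0.53 within slides 1, 2 and 3. With slide as a block the adjusted p was 0.139, and the call was lost in 10 of 19 alternatives. Mapk8, the kinase JNK1 of the polarity branch, was called higher through 1 of its 3 probes (0.94, SE 0.14, adjusted p = 0.0159), while the others gave -0.12 and 0.15, and the mean over its probes gave 0.32 with an adjusted p of 0.118. Apcdd1 was the 1 called gene among 24 of Wnt secretion and the membrane and among 20 transcriptional targets of beta-catenin, and Mapk8 the 1 among 23 of the polarity and calcium branch. The lists of cytoplasmic relay genes (24 on the array) and of nuclear cofactors (15) held 0 called genes in limma, with 1 and 3 at an unadjusted p under 0.05. Among the 20 targets 8 had an unadjusted p under 0.05 in limma, where the share over all named genes was 17.4%. Of the 20 targets 12 were above 0 and 8 below, with a median change of 0.05, and no test of the list was made. The list holds Neurod1 and Prox1, which were also used as markers of immature neurons and of dentate granule cells.

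Markers of other cells were read beside these values. In the list of immature neurons and the neurogenic niche 3 of 10 genes, Igfbpl1, Mki67 and Sox11, were called lower, Sox11 through 1 of its 2 probes (the other at -0.43, adjusted p = 0.345), and the median over the list was -0.39. The summed linear level of this list ran from 53690 to 71370 in 3M and from 45560 to 56060 in 29M. Such a sum follows mainly the brightest genes of a list, and this list shares Tubb3 with that of neurons. In microglia 2 of 9 genes, Trem2 and Tyrobp, were called higher, and the sums ran from 193800 to 213800 and from 211200 to 238800. Of the 10 genes each of the astrocyte and oligodendrocyte lists 1 was called higher (Gfap, and Ermn through 1 of its 2 probes, the other at -0.24), and Gpr17 was called lower among 10 genes of oligodendrocyte precursors. Neurons (11 genes), dentate granule cells (8), endothelial cells (11), mural cells (10) and meninges (11) had 0 called genes in limma, with 1, 2, 2, 2 and 2 genes at an unadjusted p under 0.05. Choroid plexus (12), ependyma (10) and neocortex outside the hippocampus (10) had 0 called genes and 0 at that p. The summed level of ependyma ran from 27880 to 76900 in 3M and from 47500 to 52630 in 29M. That of choroid plexus ran from 531700 to 874100 and from 605100 to 825000. Such a spread within 3M limits what 0 calls can show. Thalamus and habenula had 1 of 12 called (Synpo2, higher, through 1 of its 3 probes, the others at 0.18 and 0.09). Of these 12 genes 10 were above 0 and 2 below, with a median of 0.18. Their sums ran from 59940 to 65540 in 3M and from 59010 to 86330 in 29M. With slide as a block the calls of Igfbpl1, Trem2 and Gpr17 were lost (adjusted p = 0.136, 0.105 and 0.117). In the lists with a called gene, an unadjusted p under 0.05 in limma was found for 6 microglia, 4 immature neuron and 3 astrocyte genes. It was found for 2 genes each of oligodendrocytes, oligodendrocyte precursors, and thalamus and habenula. The share of all named genes at that p was 17.4%. Of all named genes 1.81% had a probe called higher and 0.861% had one called lower. No test of a list was made. The part of these cell types in the values of the Wnt members was not tested.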

How the data were processed

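Each sample's array came as spot intensities that the authors deposited as the scanner software gave them, linear and without normalization between samples. The headers name Agilent Feature Extraction 10.7.3.1, and in software, scanner and array version they differ from the study's methods. The deposited series table was not used: each of its 8 columns matched, to 0.001, the averaged local background of some array, in 7 columns not the array the column is named for. Median spot intensities were taken because the mean was not in the files used here. Control spots and outlier spots (127 to 190 per array) were removed, and variance stabilizing normalization (own implementation, quantile 0.9, 7 iterations), which gives a generalized log2 scale that understates changes of dim probes, was applied as in the study's methods. Spots of a probe were averaged. limma 3.58.1 (R 4.3.3) fitted age to probes with at least 3 usable arrays per group; thresholds on adjusted p (0.1) and log2 change (0.5) were the study's. Probe accessions were named through RefSeq, which gave 26055 probes a symbol and left 13374 without. The test was checked on simulated data for this comparison (39429 probes, of which 200 from the brighter part of the array were changed by a log2 of 1 or 1.5 either way), where 84% of the smaller and 95% of the larger changes were recovered and 4.79% of calls were false; smaller changes were not simulated. Replicate numbers come from the sample titles. By rule, genes given in full had in their brightest probe an unadjusted limma p under 0.05 or groups that did not overlap. That probe also had to be above background on 4 arrays of a group. Fzd6, Wnt6, Lrp5, Rspo1 and Wnt3a were added after values were seen. Members and lists were chosen with earlier results of these data known. Alternatives were other scalings, filters, blocks and leaving out each array. The number of arrays limits the precision.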

Additional observations from a re-analysis of the deposited data

Results flagged for a closer look

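In 7 of 90 groups of 4 values of the members above background, 1 sample stood apart from the other 3 relative to the range of its group. By chance about 1 in 20 groups, or 4.5 of 90, would be flagged. The number in each case is the gap to the nearest sample divided by the range of the group, and each passed the critical value of Dixon's test at the 95% level. Fzd6 in 3M-1 was at 9.13 with the others at 10.11 to 10.17 (0.942). Wnt8b in 29M-4 was at 6.64 with the others at 6.70 to 6.71 (0.924). This gap was small on the log2 scale, since Wnt8b had the lowest SD in 29M of the members above background (0.03). Wnt9b in 29M-4 was at 8.35 with the others at 7.86 to 7.91 (0.914). Wnt5b in 3M-2 was at 10.62 with the others at 10.89 to 10.92 (0.899). Fzd1 in 29M-3 was at 11.80 with the others at 11.29 to 11.36 (0.879). Wnt6 in 3M-4 was at 7.86 with the others at 8.76 to 8.90 (0.863). Wnt10b in 29M-4 was at 7.91 with the others at 7.15 to 7.27 (0.847). Sample 29M-4 was the sample concerned in 3 of the 7.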

How the results depend on the processing

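No member was called, and the count stayed at 0 in both directions under the other scalings, with outlier spots kept, with an intensity trend in the prior, and without each array in turn when no block was used. It became 1 higher with slide as a fixed block (Fzd6), 1 higher with slide as a block and without 3M-1 (Fzd6, an alternative chosen after seeing the data), and 1 lower with slide as a fixed block, with slide as a random block and with only probes above background (Wnt9a in each). Samples that share a replicate number did not all deviate together (correlations of deviations of -0.26, 0.22, -0.25 and 0.08). With 4 samples per group such correlations constrain one another, so they cannot show whether samples were paired. With the replicate block 1 member was called higher (Wnt6) and 275 probes higher and 158 lower over the array, against 476 and 297. Over the fits that leave out an array the number of members called higher ran from 0 to 1, the 1 being the fit without 3M-1 that also had the slide block, and the number lower was 0. Among the other pathway genes the number called lower was 0 at an adjusted p under 0.05, with the replicate block and with slide as a fixed block, and 2 after normexp and quantile normalization; the number higher was 2 with slide as a fixed block. Without single arrays the number higher ran from 1 to 2 and the number lower from 0 to 4, the 4 being found without 3M-1, 0 being found without 3M-2, 3M-3, 3M-4, 29M-1, 29M-2 or 29M-4. Of the member genes followed through every alternative (Wnt9a, Fzd8, Fzd1, Frzb, Axin2, Tcf7l1, Fzd6, Wnt6, Lrp5, Rspo1 and Wnt3a), Wnt3a, which was below background, reversed its sign, to -0.011 with variance stabilization of the processed signal and to -0.11 with that signal scaled to the 75th percentile, and the others kept theirs. The cause of these moves was not tested. With single arrays left out and no block, the number of probes called over the array ran from 250 higher and 132 lower without 3M-2 to 791 higher and 594 lower without 3M-1. With slide as a block and without 3M-1 it was 359 higher and 97 lower.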
